A study of Mus musculus with 6 samples.

Results

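The 36 genes described here belong to the program of motile cilia and of the ependymal cells that carry them, and were taken by name from the 35857 genes of the expression tables. They comprise transcription factors, radial spoke and dynein genes and other parts of the axoneme, and all 36 were found. Polyadenylated transcripts were sequenced from cortices of C57BL/6 mice aged 7 days after birth. There were 3 brains with the genotype label Qk-/-, called Qk knockout here, and 3 control brains with the label wild type. The gene Qk makes the RNA-binding protein quaking, present in progenitors and glia of the brain. The sources used here state neither the exons removed nor the cells that lost them. The series asks, by its title, about quaking in the switch of neural stem cells to gliogenesis.

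Motile cilia beat, and their core, the axoneme, is a ring of microtubule doublets around a central pair, with dynein motors on the doublets and radial spokes reaching inwards. In the brain they line the ventricles on ependymal cells, which arise from radial glia and put out many cilia in the first postnatal days. Geminin-family regulators such as Mcidas start the making of many centrioles, Foxj1 switches on axoneme genes, and RFX factors bind X-box sequences before many genes of both motile and immotile cilia. A cortex dissection holds ependymal cells only as far as it takes in the ventricular wall.

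Values are TPM, an abundance scaled to gene length and to the library's total. The number of reads behind a value is unknown. Each library had between 18971 and 19710 genes above 0. Qk was at 14.6, 15.2 and 15.4 TPM in knockout libraries and at 36.5, 43.2 and 41.3 TPM in control libraries (log2 change -1.36, SE 0.0945, limma, adjusted p = 0.000855). Qk RNA was thus lower in the knockout libraries, at 0.373 times the control mean, but not absent. All 36 motile cilia genes were above 0 in every library. Most were low: their mean over the 6 libraries ran between 0.387 and 37.7 TPM with a median of 3.45 TPM, 5 genes reached 10 TPM and 9 stayed under 1 TPM. The projection neuron list of the cortex summed to 975 to 1028 TPM in knockout and 916 to 995 TPM in control libraries.

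Motile cilia genes leaned upwards in the knockout cortex, and Foxj1 and Lrrc23 rose. Every gene averaging 1 TPM or more was tested with limma on log2(TPM + 1), with group as the only term and p-values adjusted by Benjamini-Hochberg over all 14994 such genes. Of the 36 motile cilia genes 27 were tested, 2 rose and 0 fell at an adjusted p under 0.05, where 0.10% of all tested genes rose and 0.287% fell. At an unadjusted p under 0.05 there were 7 of the 27 higher and 0 lower in the knockout, against 3.42% of all tested genes higher and 5.30% lower. In 8 of the 27 every knockout value lay above every control value, and in 2 every one lay below, where 5.20% of all tested genes lay above and 8.98% below. Because a filter on the mean can pass a gene through its higher group, the same was counted over all 36 with the filter lowered to 0.2 TPM. Then 10 of 36 lay above, against 5.29% of genes at that filter, and 3 of 36 lay below, against 8.27%. The log2 change, knockout minus control, was above 0 for 19 of the 27 tested genes and for 43.0% of all tested genes. Its median over the 27 was 0.27, beside -0.03 over all tested genes. Among the 5411 genes with a mean of 1 to 10 TPM, the range of 22 of the 27, the shares lying above and below were 6.19% and 7.54%, and 47.1% had a log2 change above 0. Of those 22 members 6 lay above and 2 below, which is 27.3% and 9.09%. Their median log2 change was 0.19, with 68.2% above 0, and 0 passed. Foxj1 and Lrrc23 both averaged over 10 TPM.

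**Figure D1:**
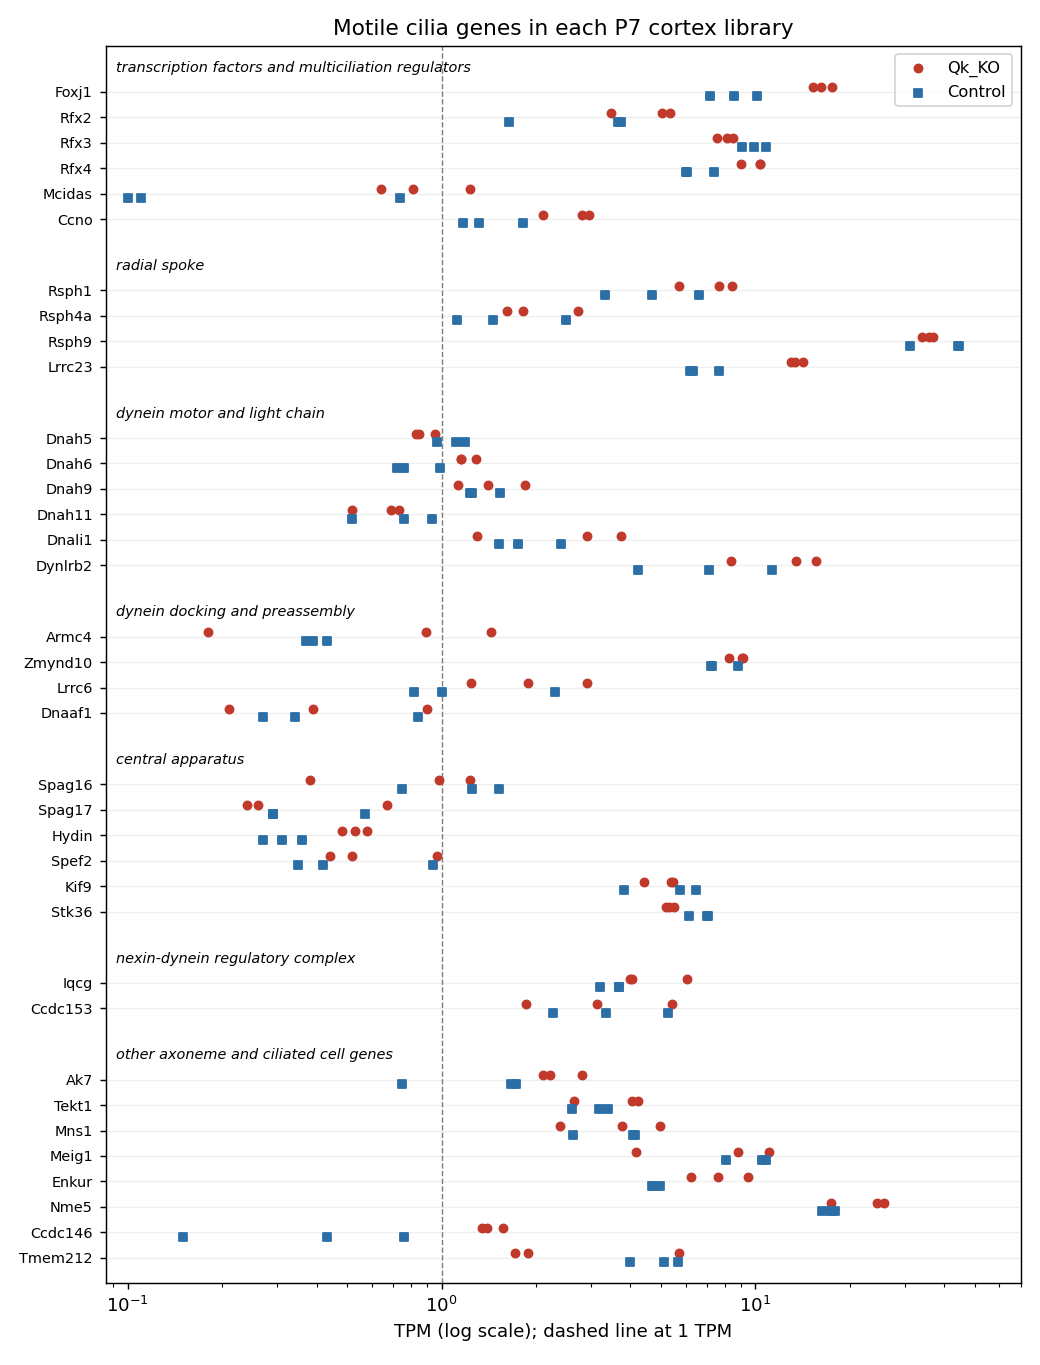
TPM of the 36 motile cilia genes in each library on a log axis, grouped by role, with knockout libraries as circles above control libraries as squares and a dashed line at the 1 TPM filter. Foxj1, Lrrc23, Enkur, Ccno and Rfx4 have all 3 knockout values above all 3 control values, while Rsph9, the most abundant, overlaps.

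Of the regulators, Foxj1 rose and the RFX genes differed among themselves. Foxj1 encodes the forkhead factor that drives motile ciliogenesis (Entrez 15223, chromosome 11, 116330704 to 116335399, minus strand, GRCm38). It was at 16.2, 17.5 and 15.3 TPM in knockout libraries and at 8.53, 7.15 and 10.1 TPM in control libraries. The groups were well apart, with the lowest knockout value 15.3 TPM and the highest control value 10.1 TPM. The means were 16.3 ± 1.13 TPM in knockout and 8.60 ± 1.48 TPM in control cortex (SD, n = 3 each), a log2 change of 0.86 (SE 0.136, 95% interval 0.55 to 1.17, limma, adjusted p = 0.0428). When each of the 6 libraries was dropped in turn the change was 0.75 to 0.98, and the call was lost every time (adjusted p 0.0518 to 0.159 by limma).

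Rfx4, an RFX factor also active in radial glia and astrocytes, was at 10.4, 9.02 and 10.3 TPM in knockout libraries, against 7.37, 6.01 and 6.04 TPM in control libraries. Every knockout value was above every control value, yet the gene did not pass (log2 change 0.55, SE 0.132, limma, adjusted p = 0.193). Rfx2, an RFX factor of multiciliated cells and sperm, was at 3.48, 5.06 and 5.36 TPM in knockout libraries, against 3.65, 1.64 and 3.73 TPM in control libraries. Those groups overlapped (log2 change 0.52, adjusted p = 0.625 by limma). Rfx3, which acts in ciliated cells of the ependyma and other tissues, went the other way. It was at 8.52, 7.57 and 8.13 TPM in knockout libraries and at 10.8, 9.10 and 9.90 TPM in control libraries. All 3 knockout values lay below the control values, with a log2 change of -0.27 (SE 0.12, limma, adjusted p = 0.586).

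The regulators of centriole number were scarce. Ccno, a cyclin needed to make many centrioles, was at 2.95, 2.11 and 2.81 TPM in knockout libraries, against 1.17, 1.82 and 1.32 TPM in control libraries. These groups did not overlap, though the gene did not pass (log2 change 0.57, SE 0.212, limma, adjusted p = 0.474). Mcidas was at 1.23, 0.64 and 0.81 TPM in knockout libraries and at 0.74, 0.11 and 0.10 TPM in control libraries. It was not tested because its mean was under 1 TPM, and control replicate 1 lay within the knockout range.

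Promoter sequences were searched for the X-box motif that links RFX factors to this gene set. Those of 4 of the 7 matched and tested members whose knockout values lay above every control value are given. Lrrc23, Enkur and Iqcg hold an X-box core, and Ak7 holds neither a core nor its variant. Ccno, which holds a core, Rfx4, which holds only the variant, and Dnah6, which holds neither, are not printed. RefSeq promoters (GRCm38.p6, 250 bases before to 50 after a start site) were matched for 28 of the 36 genes by Entrez number; Armc4, Ccdc146, Dnaaf1, Foxj1, Lrrc6, Nme5, Rsph1 and Rsph4a were not matched. Shown 5' to 3' on the gene's own strand are Lrrc23 (chr6:124779678-124779977, minus strand), Enkur (chr2:21205316-21205615, minus strand), Iqcg (chr16:33056137-33056436, minus strand) and Ak7 (chr12:105705732-105706031, plus strand). Tekt1 (chr11:72361833-72362132, minus strand) stands beside them as a member whose groups overlapped. Capitals mark an X-box core, GTTGCC or its reverse complement GGCAAC, its variant GTTACC or GGTAAC, and in Ak7 the forkhead motif TGTTTAC.
Lrrc23: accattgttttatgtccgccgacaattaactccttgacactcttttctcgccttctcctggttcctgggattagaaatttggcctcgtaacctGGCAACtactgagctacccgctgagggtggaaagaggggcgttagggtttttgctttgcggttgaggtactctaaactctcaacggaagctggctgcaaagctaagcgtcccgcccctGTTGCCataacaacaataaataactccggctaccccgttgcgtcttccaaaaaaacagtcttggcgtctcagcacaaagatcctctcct
Enkur: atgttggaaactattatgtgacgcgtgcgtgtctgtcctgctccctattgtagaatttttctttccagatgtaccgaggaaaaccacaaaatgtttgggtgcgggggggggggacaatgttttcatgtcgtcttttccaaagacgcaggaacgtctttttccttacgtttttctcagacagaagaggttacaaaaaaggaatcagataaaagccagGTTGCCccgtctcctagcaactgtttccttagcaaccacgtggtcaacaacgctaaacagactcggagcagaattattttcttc
Iqcg: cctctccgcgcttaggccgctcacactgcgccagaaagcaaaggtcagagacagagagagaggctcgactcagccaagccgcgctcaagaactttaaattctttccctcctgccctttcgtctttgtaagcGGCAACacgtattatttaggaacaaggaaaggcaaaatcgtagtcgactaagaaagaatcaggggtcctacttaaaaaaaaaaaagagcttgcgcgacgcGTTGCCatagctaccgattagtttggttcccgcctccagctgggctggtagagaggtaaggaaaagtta
Ak7: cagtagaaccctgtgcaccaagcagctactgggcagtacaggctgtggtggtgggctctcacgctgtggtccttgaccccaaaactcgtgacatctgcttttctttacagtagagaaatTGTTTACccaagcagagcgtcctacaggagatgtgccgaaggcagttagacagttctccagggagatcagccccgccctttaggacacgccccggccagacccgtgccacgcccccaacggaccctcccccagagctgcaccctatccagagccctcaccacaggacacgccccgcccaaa
Tekt1: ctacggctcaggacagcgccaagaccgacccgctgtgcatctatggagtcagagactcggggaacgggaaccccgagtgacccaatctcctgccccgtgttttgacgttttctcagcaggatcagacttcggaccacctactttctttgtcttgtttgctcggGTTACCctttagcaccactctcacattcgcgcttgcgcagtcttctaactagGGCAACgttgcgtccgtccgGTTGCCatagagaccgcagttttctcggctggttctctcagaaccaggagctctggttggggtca

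An X-box core was common in these promoters, whether or not the gene differed between the groups. It was in the promoters of 17 of the 28 matched genes, which is 60.7%, against 14.1% of all 27025 genes in the RefSeq table. Among the other motile cilia genes listed below it was in 45.5% of 88, and among intraflagellar transport and primary cilium genes in 43.8% of 48. Of the 7 matched and tested genes whose knockout values lay above every control value 4 held a core, and of the 13 whose groups overlapped 8 did. In Lrrc23 a core started at position -39 from the start site and a reverse one at -157, in Enkur one at -34, and in Iqcg at -19 and, reversed, at -119. The variant core was in 10 of 28 promoters (35.7%, against 8.16% of all genes). It was in 14.8% of the 88 other motile cilia genes and in 18.8% of the 48 primary cilium genes. Of the 7 genes above every control value 1 held the variant, and of the 13 whose groups overlapped 6 did. The paired form, GTTNCC followed after 0 to 3 bases by GGNAAC, was in 0 of 28, against 0.936%. It was in 7.95% of the 88 other motile cilia genes and in 12.5% of the 48 primary cilium genes. Pairs with other letters were not searched, so the 0 does not mean that these promoters lack a paired X-box. The forkhead motif TGTTTAC or its reverse complement was in 1 of 28, against 4.05%. These matches are letters in a window and not measured binding, and the core and the paired form can overlap.

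**Figure D2:**
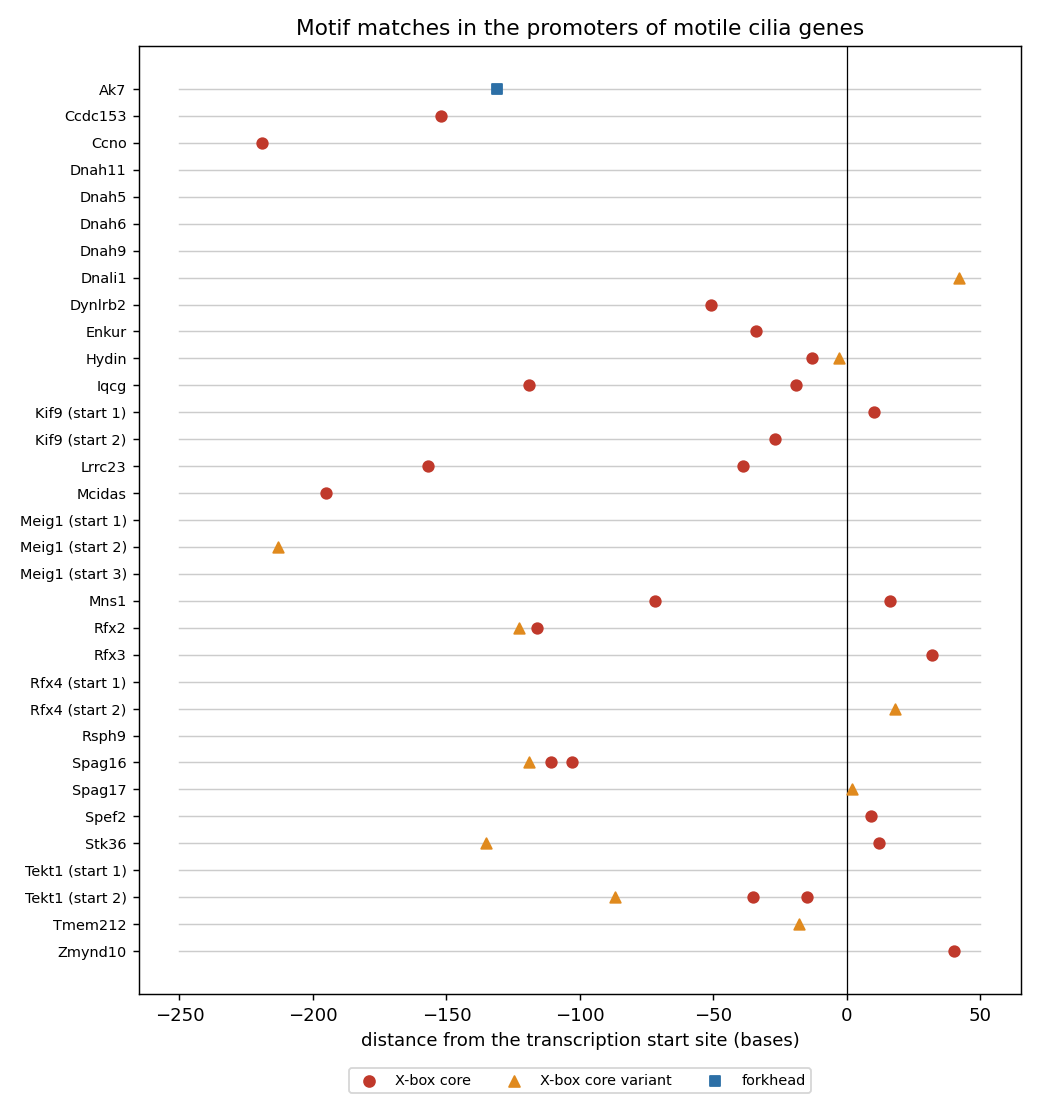
Position of each motif match, in bases from the transcription start site, in the promoters of the 28 matched genes, with 1 line per start site; circles are X-box cores, triangles core variants and the square a forkhead motif. Lrrc23, Iqcg and Tekt1 each hold 2 X-box cores before the start, and the dynein heavy chain genes Dnah5, Dnah6, Dnah9 and Dnah11 hold none.

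Radial spokes carry signals between the central pair and the dyneins, and of their genes Lrrc23 stood out. Lrrc23 encodes a leucine-rich repeat protein of the spoke head (Entrez 16977, chromosome 6, 124769863 to 124779727, minus strand). It was at 13.0, 14.2 and 13.4 TPM in knockout libraries and at 6.34, 6.21 and 7.67 TPM in control libraries. The knockout libraries were close together and all far above the controls. The means were 13.5 ± 0.603 TPM in knockout and 6.74 ± 0.808 TPM in control cortex (SD, n = 3 each), a ratio of 2.01 and a log2 change of 0.91 (SE 0.122, 95% interval 0.64 to 1.19, limma, adjusted p = 0.0182). Leaving out 1 library at a time gave 0.86 to 0.997 on the log2 scale. The adjusted p was then 0.0374 without control replicate 3 and up to 0.0862 without the others, so the call passed in 1 of the 6 fits. Neither Foxj1 nor Lrrc23 passed with the replicate number as a block or with no expression filter.

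The other spoke genes did not pass. Rsph1, a spoke head protein, was at 8.44, 5.70 and 7.67 TPM in knockout libraries, against 3.33, 4.68 and 6.60 TPM in control libraries (log2 change 0.52, SE 0.225, limma, adjusted p = 0.57). Only knockout replicate 2 lay within the control range. Rsph9, another spoke head gene and the most abundant member, was at 36.9, 35.7 and 33.9 TPM in knockout libraries and at 31.2, 44.2 and 44.4 TPM in control libraries. Its log2 change was -0.15 (95% interval -0.45 to 0.16), and the groups overlapped. Rsph4a was low, at 1.62 to 2.73 TPM in knockout and 1.12 to 2.50 TPM in control libraries (log2 change 0.20, 95% interval -0.39 to 0.79).

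None of the dynein genes passed. Dynlrb2, a dynein light chain of ciliated cells, was at 8.35, 15.6 and 13.5 TPM in knockout libraries and at 7.11, 4.24 and 11.3 TPM in control libraries. Libraries of both groups were scattered, and the interval of its log2 change was wide (0.70, 95% interval -0.01 to 1.41, limma, adjusted p = 0.578). The heavy chains are the motors themselves and were near 1 TPM. Dnah6, of the inner arm, was at 1.15, 1.29 and 1.15 TPM in knockout libraries, against 0.99, 0.72 and 0.76 TPM in control libraries, without overlap. Dnah5, a core heavy chain of the outer arm, was at 0.83, 0.95 and 0.85 TPM in knockout libraries and 1.11, 1.19 and 0.97 TPM in control libraries, apart in the opposite direction. Dnah5 was untested for its low mean, and Dnah6 had an adjusted p of 0.803 by limma. Dnah9 overlapped at 1.46 ± 0.358 TPM in knockout and 1.34 ± 0.173 TPM in control cortex (SD, n = 3 each). Dnah11 overlapped at 0.647 ± 0.112 TPM in knockout and 0.737 ± 0.206 TPM in control cortex. So did Dnali1, an inner arm light intermediate chain, at 2.64 ± 1.23 TPM in knockout and 1.89 ± 0.452 TPM in control cortex.

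None of the genes that assemble and dock the dynein arms passed, and their groups overlapped. Zmynd10, a preassembly factor, was at 9.14, 8.22 and 9.06 TPM in knockout and 7.29, 7.22 and 8.81 TPM in control libraries (log2 change 0.16, 95% interval -0.13 to 0.45). Lrrc6, its partner, had a log2 change of 0.36 (95% interval -0.34 to 1.06), with overlap. Armc4, which docks outer arms, and Dnaaf1, a preassembly factor, stayed under 1 TPM on average. Armc4 ranged over 0.18 to 1.44 TPM in knockout and 0.37 to 0.43 TPM in control libraries, and 20.7% of the exon bases of Dnaaf1 are shared with Taf1c on the other strand.

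The 3 tested genes of the central pair all had a log2 change below 0 and none passed, where 43.0% of all tested genes had one above 0. Stk36, a kinase needed for the central pair in mouse ependyma, was at 5.32, 5.19 and 5.51 TPM in knockout libraries and at 7.01, 6.13 and 7.09 TPM in control libraries. All knockout values lay below the control values, but the gene did not pass (log2 change -0.29, SE 0.131, limma, adjusted p = 0.59). Kif9, a kinesin of the central pair, had a log2 change of -0.04 (95% interval -0.48 to 0.39) and Spag16 one of -0.23 (95% interval -0.88 to 0.41). Hydin, a central pair protein whose loss causes hydrocephalus in mice, was untested at 0.53, 0.58 and 0.48 TPM in knockout libraries, against 0.36, 0.27 and 0.31 TPM in control libraries. Its groups did not overlap. Spag17 and Spef2, also under 1 TPM on average, overlapped. Spag17 shares 9.66% of its exon bases with Wdr3 on the other strand, which was at 14.7 TPM in knockout and 14.6 TPM in control cortex.

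Among the remaining members, several separated without passing. Enkur, a protein inside the axonemal microtubules, was at 7.60, 9.46 and 6.23 TPM in knockout libraries and at 4.74, 4.98 and 4.68 TPM in control libraries. The control libraries were nearly equal and all below the knockout ones (log2 change 0.58, SE 0.162, limma, adjusted p = 0.292). Ak7, an adenylate kinase of cilia, was at 2.81, 2.21 and 2.10 TPM in knockout libraries, against 1.66, 0.75 and 1.73 TPM in control libraries (adjusted p = 0.593 by limma). Iqcg, of the nexin link between doublets, was at 4.06, 6.04 and 3.99 TPM in knockout and 3.68, 3.68 and 3.21 TPM in control libraries. This gap was small, and 48.1% of the exon bases of Iqcg are shared with Lrch3 on the other strand, whose reads cannot be told apart if the counting ignored strand. Nme5, the second most abundant member, was at 17.4, 25.8 and 24.5 TPM in knockout libraries and at 16.3, 17.4 and 17.96 TPM in control libraries (log2 change 0.35, SE 0.144, limma, adjusted p = 0.537). Knockout replicate 1 lay among the controls. Ccdc146, a centriole and microtubule-associated protein, was untested at 1.40, 1.57 and 1.35 TPM in knockout libraries, against 0.76, 0.15 and 0.43 TPM in control libraries, with no overlap.

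Not every marker of ependymal cells leaned the same way. Tmem212 was at 5.72, 1.89 and 1.72 TPM in knockout libraries and at 5.68, 3.99 and 5.13 TPM in control libraries. Knockout replicates 2 and 3 were below all controls and replicate 1 above them (log2 change -0.65, 95% interval -1.40 to 0.10, limma, adjusted p = 0.636). Ccdc153 was at 5.44, 3.14 and 1.86 TPM in knockout libraries, against 5.27, 2.27 and 3.35 TPM in control libraries, and its log2 change was -0.08. Tekt1, a tektin filament gene, had a log2 change of 0.18 (95% interval -0.27 to 0.63). Mns1 had one of 0.01 and Meig1 one of -0.34, both with overlapping groups, and 53.0% of the exon bases of Mns1 are shared with Tex9 on the other strand.

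**Figure D3:**
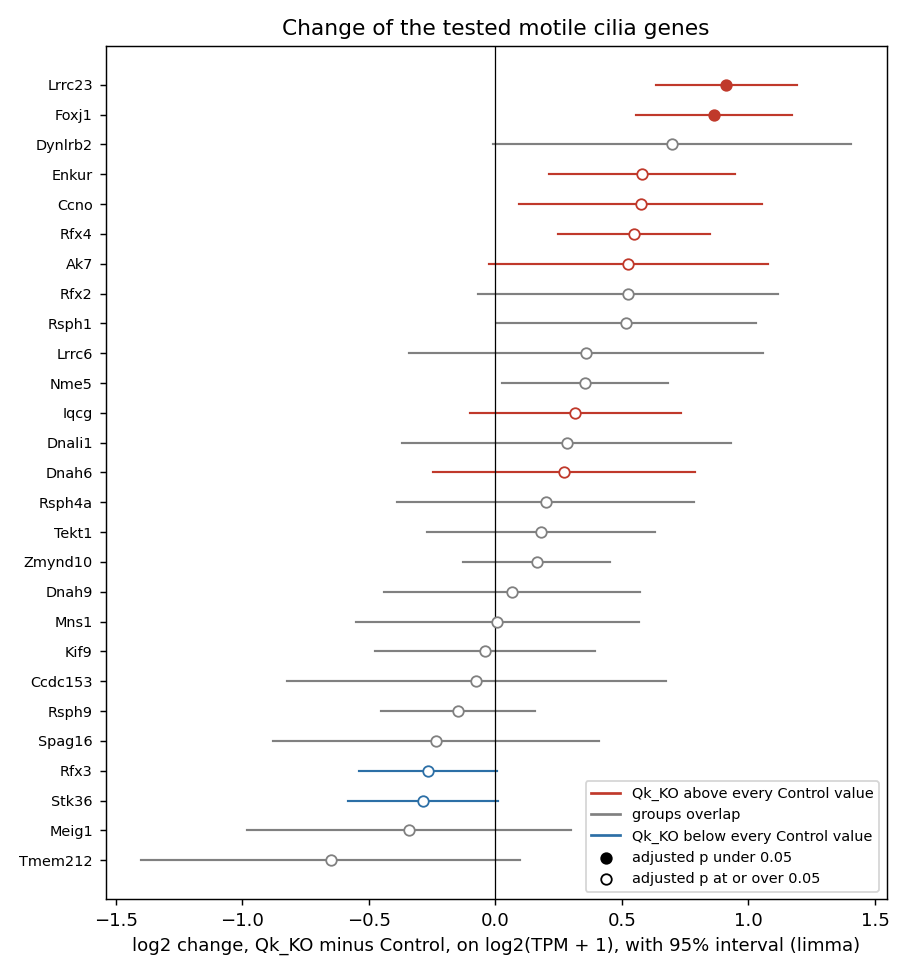
Log2 change of the 27 tested members on log2(TPM + 1), knockout minus control, with its 95% interval from limma; filled points passed an adjusted p of 0.05, and colour shows whether the groups were apart. Lrrc23 (0.91) and Foxj1 (0.86) are the filled points, and Stk36 (-0.29) and Rfx3 (-0.27) are the members that lay below every control value.

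Across libraries the summed level of the members was higher in the knockout. The 36 genes summed to 204, 206 and 208 TPM in knockout libraries and to 168, 163 and 189 TPM in control libraries, with no overlap. Without Foxj1 and Lrrc23 the sum was 175, 174 and 180 TPM in knockout libraries and 153, 150 and 171 TPM in control libraries, a narrower gap. Of the 36, 12, 10 and 7 had their highest value in knockout replicates 1, 2 and 3, against 1, 1 and 5 in control replicates 1, 2 and 3. Control replicate 2 held the lowest value of 12 members, more than any other library. The same counts were not made over all genes, so these describe the libraries and are not read as a result about the members. The 6 ependymal markers Foxj1, Ccdc153, Tmem212, Rsph1, Dynlrb2 and Tekt1 summed to 48.4, 46.5 and 44.1 TPM in knockout and 33.1, 25.7 and 39.1 TPM in control libraries. Without Foxj1 the other 5 summed to 32.2, 28.9 and 28.8 TPM in knockout and 24.6, 18.6 and 29 TPM in control libraries, and the groups overlapped. In bulk tissue more cells of a type, or more ventricular wall in a dissection, and more RNA per cell cannot be told apart.

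A wider list of motile cilia genes, none of them among the 36, leaned upwards and held no gene that passed. It was written with earlier results of these data known, so it is no independent support for the lean of the members. Of 99 listed genes 98 were in the files and 67 were tested. The median log2 change of the 67 was 0.11, and 48 were above 0, which is 71.6% against 43.0% of all tested genes. In 11 of the 67 the knockout values lay above every control value and in 2 below, which is 16.4% and 2.99%, against 5.20% and 8.98% of all tested genes. At an unadjusted p under 0.05 there were 9 higher and 0 lower, against 3.42% and 5.30% of all tested genes. Among the 11 without overlap, the largest changes were in Tekt4, a tektin, and Mlf1, a gene of the ciliated cell program. Tekt4 was at 5.35, 4.06 and 3.70 TPM in knockout libraries and at 2.32, 0.81 and 3.02 TPM in control libraries (log2 change 0.88, limma, adjusted p = 0.414). Mlf1 was at 15.9, 11.4 and 11.9 TPM in knockout libraries, against 7.48, 6.13 and 6.68 TPM in control libraries (0.85, SE 0.15, adjusted p = 0.068). Its groups were far apart, and it did not pass in any of the other 14 settings tried (adjusted p 0.0626 to 0.236). Cfap206 (log2 change 0.59), Ulk4 (0.56) and Ccdc65 (0.49) followed among those 11. Ulk4 shares 8.93% of its exon bases with the opposite strand of Ctnnb1, which was at 464 TPM in knockout and 457 TPM in control cortex. The genes below every control value were Stoml3 (-0.56) and Cfap74 (-0.44).

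A list of 16 genes of centriole amplification and its regulation, with related RFX and geminin genes, held no gene that passed. Of the 16, 12 were tested, 0 passed by limma (1 at an unadjusted p under 0.05), 6 had a log2 change above 0, and the median was -0.01. In Ccdc67 and Myb, 2 of the 12, the knockout values lay above every control value, which is 16.7% against 5.20% of all tested genes, and in 0 below. Ccdc67, now called Deup1, builds the deuterosomes on which ciliated cells make centrioles, and was picked out after its values were seen. It was at 4.86, 3.45 and 2.57 TPM in knockout libraries and at 1.38, 0.87 and 1.12 TPM in control libraries, with no overlap (log2 change 1.10, SE 0.237, limma, adjusted p = 0.137). Leaving out 1 library at a time, its change was 0.92 to 1.27 and its adjusted p 0.147 to 0.377.

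Genes of intraflagellar transport and of the primary cilium, which neurons and glia also carry, had a median near that of all genes. Of 55 genes 54 were tested and 0 passed by limma. At an unadjusted p under 0.05, 2 were higher and 2 lower, against 3.42% and 5.30% of all tested genes. The median log2 change of the 54 was -0.04, close to the -0.03 of all tested genes. Of the 54, 21 were above 0, which is 38.9% against 43.0% of all tested genes. In 3 the knockout values lay above every control value and in 7 below, which is 5.56% and 13.0%, against 5.20% and 8.98% of all tested genes. Their sum was 1792, 1727 and 1854 TPM in knockout libraries and 1808, 1771 and 1870 TPM in control libraries, with overlap. Whether the motile and the primary cilium lists differ was not tested.

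**Figure D4:**
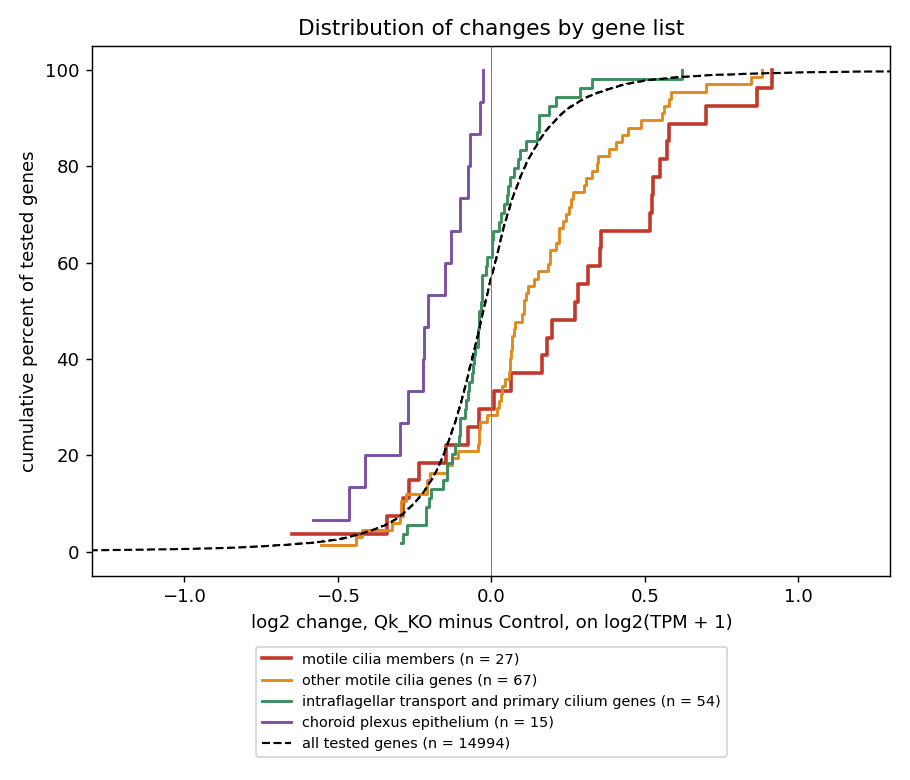
Cumulative percent of tested genes by log2 change, knockout minus control, for the motile cilia members and other lists, with all 14994 tested genes as a dashed line. The members (median 0.27) and the other motile cilia genes (0.11) run to the right of all genes (-0.03), the primary cilium genes (-0.04) follow them, and the choroid plexus genes (-0.21) run to the left.

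Markers of neighbouring tissue were also read. The choroid plexus epithelium, which lies in the ventricles and also bears motile cilia, was represented by 18 genes with 15 tested. Of these 0 passed by limma, 0 had an unadjusted p under 0.05, and all 15 had a log2 change below 0 (median -0.21). Of all tested genes 43.0% had a log2 change above 0. The 18 genes summed to 742, 1119 and 809 TPM in knockout libraries and to 1639, 817 and 1547 TPM in control libraries. Control replicates 1 and 3 were thus high, and control replicate 2 lay among the knockouts. Ttr, the transthyretin gene of that epithelium, was at 647, 992 and 712 TPM in knockout libraries, against 1495, 724 and 1412 TPM in control libraries. Folr1 had a log2 change of -0.46 and Clic6 one of -0.30, with overlap. The mean sum of the choroid plexus genes, most of it Ttr, was lower in the knockout, with overlap between the groups. Its relation to the motile cilia values was not tested.

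Of 12 meningeal genes 0 passed by limma (3 at an unadjusted p under 0.05, all lower) and 11 had a log2 change below 0 (median -0.24). Over all tested genes 3.42% were higher and 5.30% lower at that unadjusted p, and 43.0% had a log2 change above 0. Of 10 genes of the subventricular zone and newborn interneurons 0 passed (median -0.03), and of the 10 striatal genes 0 passed (median 0.04), each with 1 at an unadjusted p under 0.05. The 8 genes of the dentate gyrus and hippocampus (6 tested, 0 at an unadjusted p under 0.05, median -0.14) and the 10 of cortical projection neurons (2 at an unadjusted p under 0.05, median 0.01) also held no call. Of 10 astrocyte genes Slc1a3, Mlc1, Fgfr3 and Gja1 fell, which is 4, and 0 rose (median -0.33). Of all tested genes 0.287% fell and 0.10% rose. With any single library removed 2 of the astrocyte genes passed. At an unadjusted p under 0.05 there were 5 lower and 1 higher, the last being Aldh1l1 (log2 change 0.47, limma, adjusted p = 0.139), whose knockout values lay above every control value. The 10 summed to 796, 739 and 737 TPM in knockout and 1126, 1046 and 1109 TPM in control libraries. The part of these shifts in the motile cilia values was not tested. Of 9 genes that ependymal cells use outside the axoneme and share with other cells, Vim, an intermediate filament gene, rose (log2 change 0.60, limma, adjusted p = 0.0193) and S100b, a calcium-binding protein gene, fell (-1.29, adjusted p = 0.00257). Both are also expressed in astrocytes or radial glia. Vim lost its call without control replicate 2 or 3 or knockout replicate 1 or 2.

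**Figure D5:**
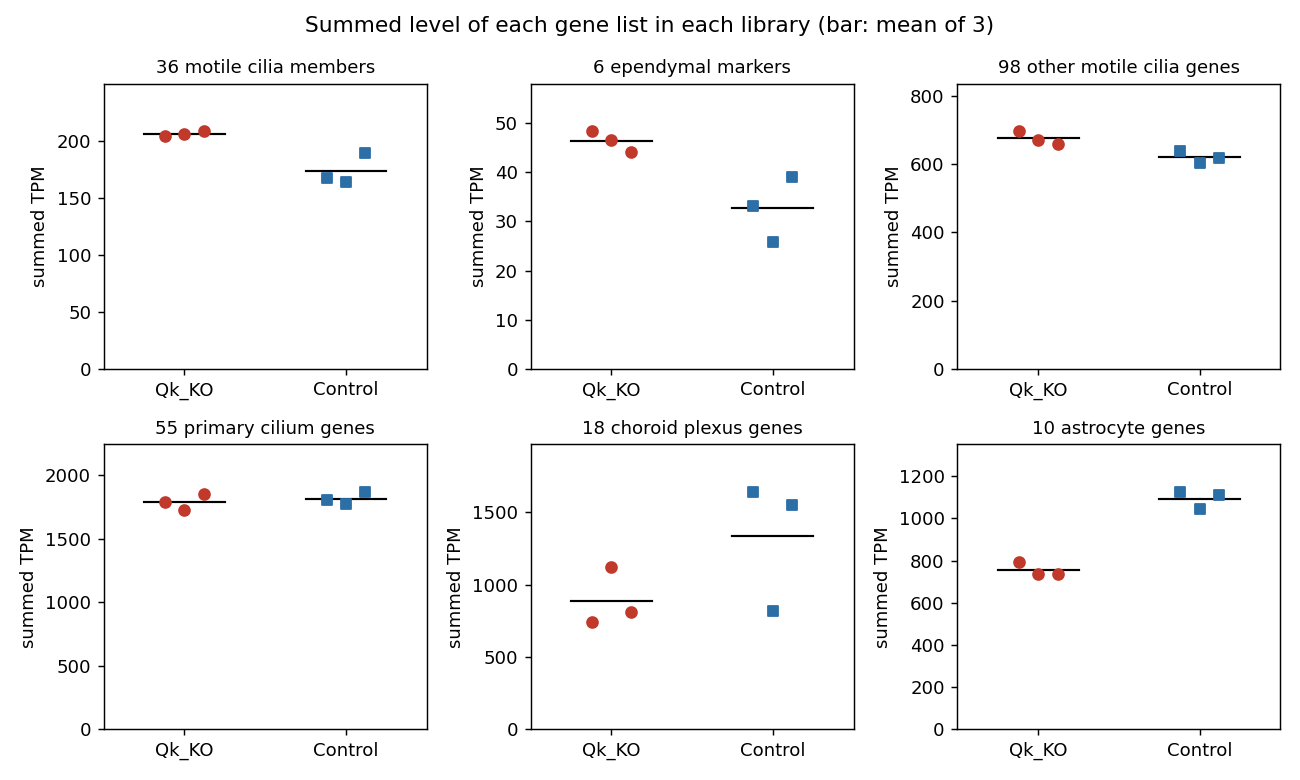
Summed TPM of 6 gene lists in each library, knockout left of control, with a bar at the mean of 3 libraries. The 36 motile cilia members (204 to 208 TPM in knockout, 163 to 189 TPM in control) and the 6 ependymal markers are higher in the knockout, without overlap. Without Foxj1 the marker sums overlap, at 28.8 to 32.2 TPM in knockout and 18.6 to 29.0 TPM in control libraries. The primary cilium genes overlap, and the choroid plexus and astrocyte sums have lower means in the knockout.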

How the data were processed

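RNA of 6 cortices was sequenced on the Ion Proton after selection of polyadenylated transcripts, per the labels' protocols. The authors deposited TPM per gene, under an Entrez number and a symbol. STAR 2.4.1d, RSEM 1.3.0 and the builds mm10 and GRCm38.p4 are named in the submitters' processing notes; the sources used here state neither the annotation nor any use of strand in counting. TPM keeps no depth, so no counting interval could be given.

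Members were matched by symbol. TPM were used as deposited. Genes averaging 1 TPM or more were fitted as log2(TPM + 1) with limma 3.58.1 in R 4.3.3 (lmFit, eBayes with trend), group as the only term; adjusted p-values are Benjamini-Hochberg over the 14994 genes tested, at 0.05. The log2 scale with this pseudocount understates changes of low genes. The fit was tested on simulated data. Each library is a separate brain, per the labels. Coordinates and exon overlaps come from GENCODE M21 (GRCm38), and promoters from RefSeq. Members and gene lists were chosen with earlier results of these data known. Values in every library were to be given for members past the threshold, members without overlap at 1 TPM or more, the regulators and the 5 most abundant; further members, Ccdc67, Myb, Aldh1l1, sums without the called members and the exon overlaps were added after values were seen. From other lists the rule took genes past the threshold, the largest non-overlapping changes of motile cilia genes, 3 choroid plexus genes and the 2 most abundant per list; the most abundant are not printed because no result turned on them.

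The labels share replicate numbers between the groups but state no pairing, so the reported fit used none. In total 14 alternatives were run.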

Additional observations from a re-analysis of the deposited data

How the results depend on the processing

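The calls of Foxj1 and Lrrc23 depended on the setting. Foxj1 passed in 4 and Lrrc23 in 7 of the 14 other settings, always with a positive log2 change (0.66 to 0.98 and 0.66 to 1.0). In both genes every knockout value lay above every control value. Dropping a library or changing the pseudocount, filter, trend or block therefore could not turn that sign. The number of members past the threshold was 2 in the reported fit, 1 with a filter at 0.2 TPM or without the trend, 0 with no expression filter, and 0 to 1 with any single library removed, a smaller fit. Over all genes the number was 58 in the reported fit, 37 with no filter, 28 without the trend and 27 to 59 with any single library removed. With the replicate number as a block, a pairing that the labels do not state, 38 genes and 0 members passed, with 1 ependymal surface gene and 2 astrocyte genes; deviations of same-numbered libraries correlated at 0.035, 0.031 and 0.013, and each library correlated best with its own number. Ependymal surface genes past the threshold numbered 1 with no filter or without the trend, and 1 to 2 with any single library removed; astrocyte genes numbered 2 with no filter, without the trend, and in each fit that left out a library. The cause of these losses was not tested.

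Members above every control value numbered 7 to 14 and those below 2 to 5 when a library was left out, 14 without control replicate 3, and 5 and 4 without control replicate 1 and knockout replicate 1; all genes gave 8.73% to 10.9% and 12.6% to 17.0% there. The median log2 change of tested members was 0.36 with a pseudocount of 0.1, 0.11 with 5, 0.21 with no filter or a filter at 0.2 TPM, and 0.16 to 0.32 with any single library removed. Leaving out a library turned the sign of Kif9 (-0.23 to 0.088), Mns1 (-0.18 to 0.23), Ccdc153 (-0.38 to 0.21), Dnah9 (-0.044 to 0.16) and Meig1 (-0.59 to 0.018), none of them called. Median-of-ratios and quantile scaling kept 2 members past the threshold, with medians of 0.28 and 0.29. At levels near 1 TPM the unknown read number limits what can be seen.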
